A study of Mus musculus with 2 samples.

Results

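Imprinted genes are genes of which mainly the maternal or mainly the paternal copy is active, and the accessibility of 44 of them was described here in adult mouse hippocampus. The 44 were taken by name from the well-known imprinted regions of the mouse, together with neighbours and host genes whose imprinting is limited to some tissues, and were found once each among 32093 protein-coding and long noncoding genes of GENCODE M21. The data were DNase-seq: DNase I cuts chromatin where nucleosomes and bound proteins leave it open, peaks are places with many cuts, and footprints are short protected stretches inside them. There was 1 group of 2 libraries, biological replicates 1 and 2, both from layer of hippocampus tissue of male B6CASTF1/J mice aged 8 to 10 months with no treatment named, and no second condition. Each library was a pool of 2 biosamples, the labels name no layer, and both carry the same donor label, so the spread between the replicates may be technical. B6CASTF1/J mice are hybrids of the strains C57BL/6J and CAST/EiJ, but the files do not separate alleles: a peak value is the sum over both parental copies, and nothing below says which copy was open.

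In an imprinted region, DNA methylation set in one parent's germ cells marks a control region, and in many regions this is a CpG-rich promoter that is methylated on the maternal copy and active on the paternal copy. ZFP57 and its partners bind a short methylated sequence there and keep the mark in the embryo, while CTCF binds the unmethylated copy of other control regions, as upstream of H19, and separates enhancers from a promoter. In the brain several of these genes have their own patterns: Ube3a is expressed from the maternal copy in neurons, Grb10 from the paternal copy, and the Snrpn and Dlk1-Meg3 regions give rise to many small RNAs.

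The replicates held 144270 and 124426 peaks (median length 200 bp in both). The value of a peak is its height in the authors' units, whose scale no source used here states, and the median height of all peaks was 0.643 and 0.639. Promoter peaks were called in both replicates for markers of excitatory neurons (4 of 4 genes), dentate granule cells (2 of 2), inhibitory neurons (2 of 2), oligodendrocytes (3 of 3) and astrocytes (3 of 3). Some of these were low, with 0.538 and 0.407 at Gad2 of inhibitory neurons. The markers of dentate granule cells, inhibitory neurons and oligodendrocytes are CpG-rich. In deciles 7 to 10 of CpG ratio, defined below, 92.7% of all genes were open in both replicates, so such calls say little about cell type. Of 2 markers each of microglia, endothelium and choroid plexus, 1 of each had a peak in both replicates (heights 0.525 and 0.529 at Csf1r, 0.571 and 0.523 at Kdr, 0.840 and 0.704 at Ttr), and none of 4 markers of other organs had a peak in either. The tissue is a mixture of cells, so an opening in fewer cells and a weaker opening in each cell cannot be told apart.

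A promoter was the window of 1000 bp to each side of any annotated start site, and a gene was represented by its tallest promoter peak. Of the 44 imprinted genes, 34 were open in both replicates, meaning that a promoter peak was called in each (77.3%), against 52.8% of all 32093 genes, 62.6% of protein-coding genes and 31.6% of long noncoding genes. Weighted by the CpG content of the members, all genes give 77.4%, so the share of open promoters was at that background. The 34 genes had 32 distinct tallest peaks, because Peg3 and Usp29 share 1 and Peg10 and Sgce share 1. Dlk1, Rian and Ddc had a promoter peak in 1 replicate only, and H19, Igf2, Slc22a18, Ndn, Rtl1, Mirg and Slc22a3 had none in either. The 15 genes classed here by a promoter at a maternally methylated germline region were all open in both replicates, against 81.6% of genes of the same CpG content, and so were 19 of the other 29, against 75.2%. Among the promoter windows without a peak, none of the 8 members of replicate 1 and 1 of the 9 of replicate 2 held an interval listed in the deposited false discovery rates, against 2.54% and 2.34% of all genes without a peak. Gnas, which has such a region at 1 or more of several promoters, was counted with the other 29. With it, by its tallest promoter peak, 16 of 16 were open. Grb10 and Inpp5f, which also have several start sites, were counted with the other 29 too. Their start sites were not classed separately and may include such a region, so the split by gene is approximate. The classes of germline-region promoters come from general knowledge of the loci and from no methylation measured here.

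**Figure D1:**
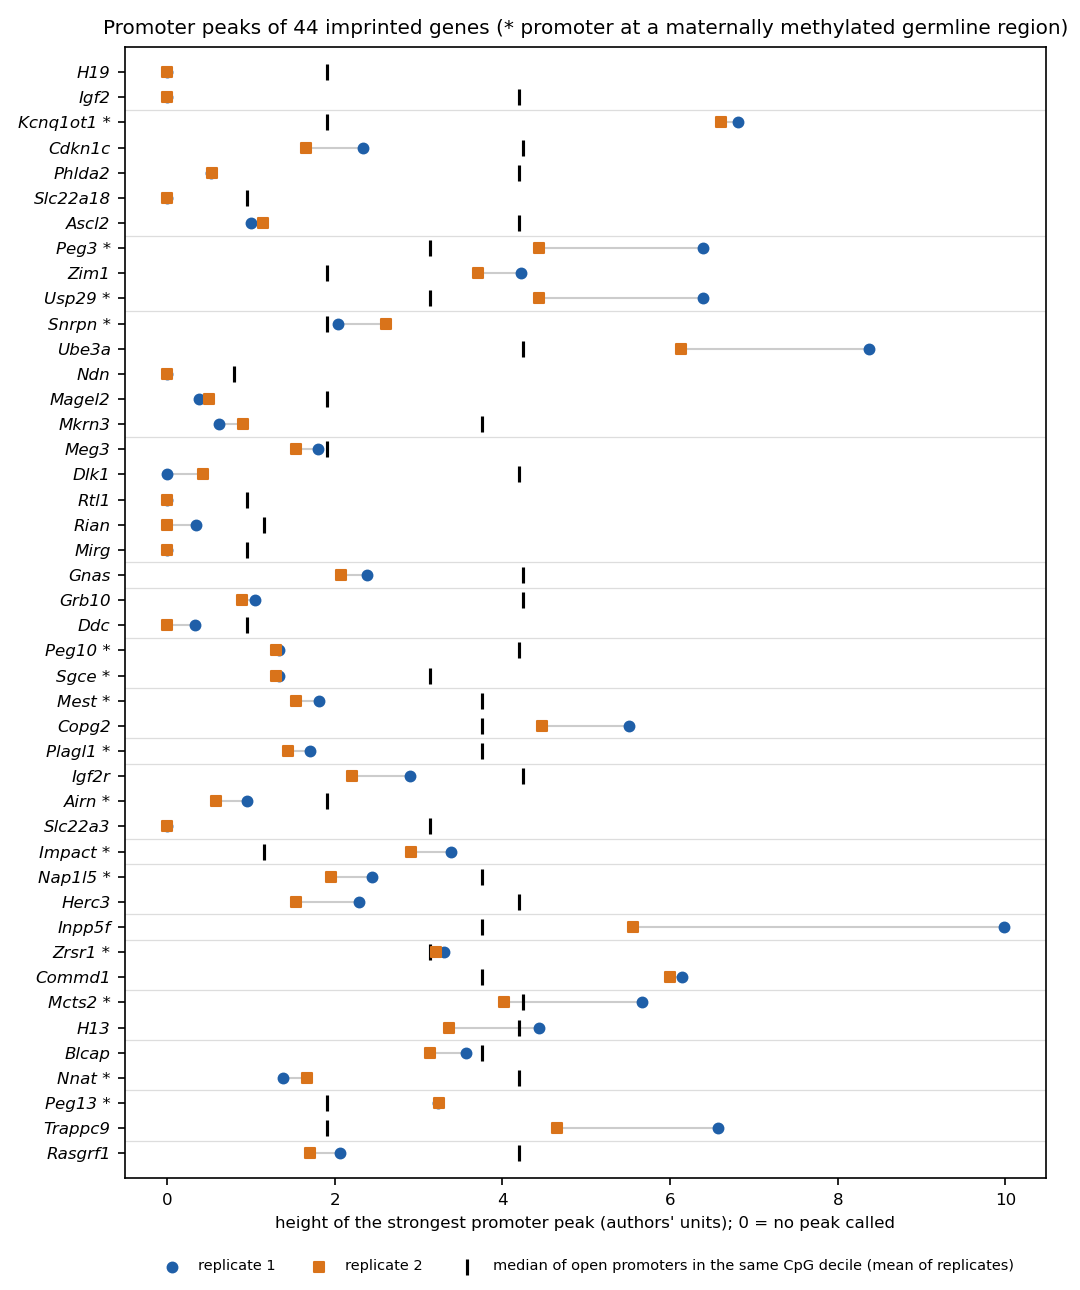
Height of the tallest promoter peak of each of the 44 imprinted genes in replicate 1 (circles) and replicate 2 (squares), in the authors' units, grouped by region. Vertical ticks give the median of open promoters in the same CpG decile, as the mean of both replicates. Values run from 0 (no peak) to 9.98 in replicate 1 (Inpp5f) and 6.61 in replicate 2 (Kcnq1ot1), and the tick lies above both replicates in 19 of the 28 CpG-rich genes.

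Promoters with more CpGs had taller peaks, from a median over open promoters of 0.735 and 0.626 in the lowest decile of CpG ratio to 4.73 and 3.78 in the highest, so each gene was ranked among all genes in its decile of that ratio, the observed over the expected number of CpGs in the 500 bp before and after a start site (the highest of the gene), with genes without a peak at 0. In deciles 7 to 10, the CpG-rich ones, 28 imprinted genes stood among 12838 genes, and their median height was 2.31 and 1.69 (replicates 1 and 2) against 3.94 and 3.16 over all genes there. In these deciles 25 of 28 were open in both replicates, 89.3% against 92.7%, so they were about as often open. They ranked lower: 18 of 28 (64.3%) ranked under the 50th percentile in both replicates, against 47.3% of all genes there, and 11 of 28 (39.3%) under the 25th, against 23.4%. In deciles 5 and 6 the picture was the other way round: 9 of 11 were open in both replicates (81.8%, against 53.4%), and 7 of 11 ranked over the 50th percentile in both (63.6%, against 43%). Of the 5 members of deciles 1 to 4 (Slc22a18, Ndn, Rtl1, Mirg and Ddc) 0 were open in both replicates, where 12.6% of all genes were. When all genes were ranked together with no match by CpG, 10 of the 44 members lay under the 50th percentile in both replicates, in place of 25.

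**Figure D2:**
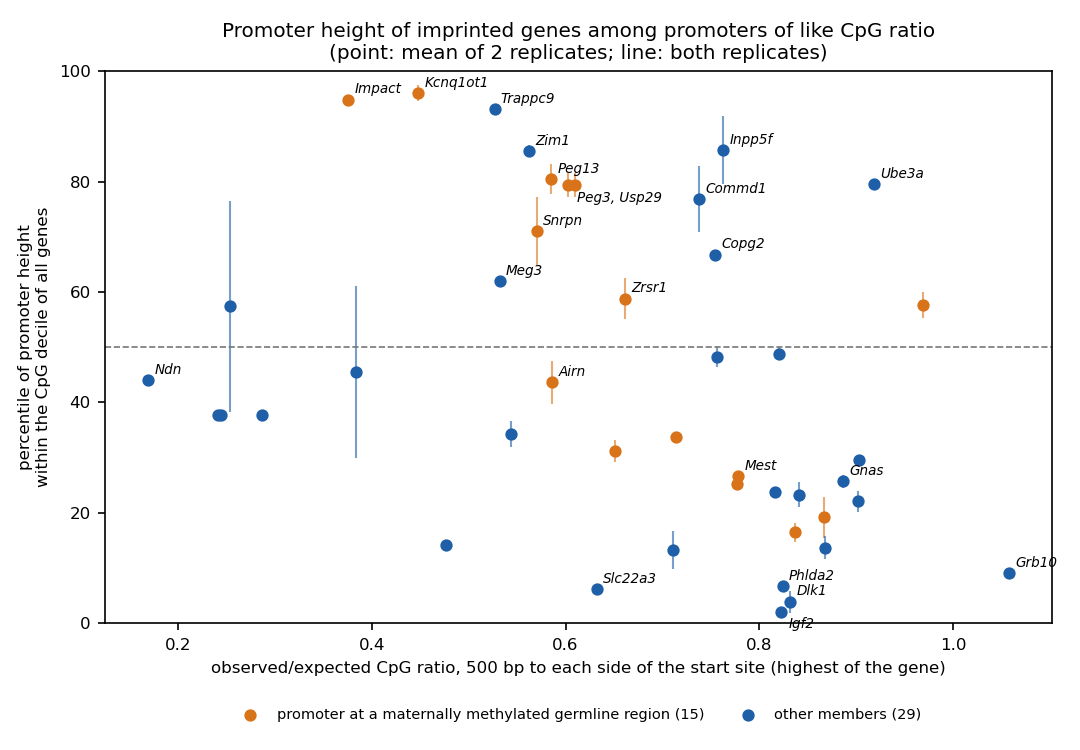
Percentile of promoter height within the CpG decile of all genes (vertical axis) against the CpG ratio (observed over expected, horizontal axis) for the 44 imprinted genes; points are means of 2 replicates, lines join the replicates, and orange marks the 15 germline-region promoters. Between ratios of about 0.4 and 0.6 many genes lie high (Kcnq1ot1 at the 95th and 97th percentile), while among the CpG-rich genes 18 of 28 lie under the dashed line in both replicates.

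H19 and Igf2 (chromosome 7) were both without a promoter peak. H19 is a maternally expressed long noncoding RNA and Igf2 the paternally expressed insulin-like growth factor 2, both known for high levels in the fetus. Igf2 has a CpG ratio of 0.822, and 95.0% of genes in its decile were open in both replicates. The nearest peaks to Igf2 lay upstream, 5515 bp from the start site with heights of 1.69 and 1.46, and 9045 bp with 1.69 and 1.57, and a low peak between them had 0.492 and 0.478. Upstream of H19, where the control region of this pair is known to lie, there were 5 peaks in both replicates, at 2158, 2618, 3668, 6928 and 7958 bp from the start site. Their heights were 0.912 and 0.768, 1.19 and 1.34, 1.25 and 1.05, 1.22 and 0.691, and 1.12 and 1.19 in replicates 1 and 2. H19 thus ranked at the 92nd and 94th percentile for distal peaks per 10 kb among genes of like length, with its own promoter closed.

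The 3 peaks nearest to H19 are printed here because they hold the CTCF and ZFP57 matches, with matches in capitals. The CTCF core searched was CGNGGNGGC and the ZFP57 hexamer TGCCGC, each on both strands, the sequence is the + strand of mm10, 5′ to 3′, and H19 lies on the - strand.
H19 peak at 2158 bp (chr7:142580181-142580420): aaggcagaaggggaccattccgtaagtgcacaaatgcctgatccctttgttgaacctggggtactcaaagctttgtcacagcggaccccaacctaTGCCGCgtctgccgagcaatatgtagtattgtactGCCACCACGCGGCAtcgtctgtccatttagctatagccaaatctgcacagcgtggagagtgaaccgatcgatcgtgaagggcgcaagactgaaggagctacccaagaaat
H19 peak at 2618 bp (chr7:142580661-142580860): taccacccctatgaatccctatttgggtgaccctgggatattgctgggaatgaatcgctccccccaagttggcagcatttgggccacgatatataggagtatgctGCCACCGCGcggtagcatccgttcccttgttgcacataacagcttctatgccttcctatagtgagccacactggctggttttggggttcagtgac
H19 peak at 3668 bp (chr7:142581701-142581920): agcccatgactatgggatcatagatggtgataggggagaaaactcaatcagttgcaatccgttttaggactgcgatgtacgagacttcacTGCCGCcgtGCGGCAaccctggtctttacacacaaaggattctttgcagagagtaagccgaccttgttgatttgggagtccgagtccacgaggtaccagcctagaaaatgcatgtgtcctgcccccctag
The peaks at 2158 and 2618 bp each hold 1 CTCF core, and in both peaks a footprint overlapped the core in both replicates. Over all peaks of the members, 4 of 17 such cores (23.5%) were overlapped in both replicates, and in the genome 24% of 2383 in distal peaks. In the peak at 2158 bp the core shares 1 base with a ZFP57 hexamer under the same footprint, and a second hexamer there had no footprint in either replicate. No exact match to the core was found in the peak at 3668 bp, and a CTCF site that departs from that string would be missed. The peak holds 2 ZFP57 hexamers on opposite strands 3 bp apart, each overlapped by a footprint in both replicates, against 15.5% of 6823 hexamers in distal peaks. Which protein left that footprint was not tested.

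The Kcnq1ot1 region (chromosome 7) had the imprinted promoter that stood highest against its CpG class on the mean of the replicates, with Impact next and level with it in replicate 1. Kcnq1ot1 is the paternally expressed noncoding RNA that silences the neighbouring genes, and its promoter peak had heights of 6.81 and 6.61, at the 95th and 97th percentile of its decile. That was 3.25 and 3.85 times the median of open promoters in that decile. The maternally expressed genes it silences were lower: Cdkn1c, a cyclin-dependent kinase inhibitor, had 2.34 and 1.66, Ascl2, a factor of the trophoblast, 0.998 and 1.14, and Phlda2, which restrains placental growth, 0.518 and 0.536. Their percentiles were 24 and 20, 12 and 16, and 6 and 7, so all 3 CpG-rich promoters lay in the part of their deciles under the 25th percentile in both replicates. Slc22a18, a membrane transporter, had no promoter peak. The tallest distal peaks with a CTCF match lay 5461 bp upstream of Cdkn1c (heights 2.00 and 2.49), 3500 bp upstream of Phlda2 (1.27 and 1.80) and 3031 bp upstream of Cdkn1c (1.42 and 1.54), each with its match under a footprint in both replicates.

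The promoter peak of Kcnq1ot1 is shown for its row of CCAAT boxes, the sequence read by NF-Y (capitals, ATTGG on this + strand; Kcnq1ot1 lies on the - strand).
Kcnq1ot1 promoter peak (chr7:143296561-143296820): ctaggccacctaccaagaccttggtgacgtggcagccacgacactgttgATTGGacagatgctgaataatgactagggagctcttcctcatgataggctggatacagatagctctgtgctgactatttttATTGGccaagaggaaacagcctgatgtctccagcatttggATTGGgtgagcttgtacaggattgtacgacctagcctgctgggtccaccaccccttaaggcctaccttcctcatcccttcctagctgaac
All 3 boxes have the same orientation. A window of 200 bp at the midpoint of a promoter peak held 3 or more CCAAT matches on either strand in 1.78% and 1.83% of promoter peaks of replicates 1 and 2. This motif was added after the sequence had been seen.

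In the Peg3 region (chromosome 7) the start sites of Peg3, a zinc-finger protein, and Usp29, a ubiquitin protease, lie next to each other on opposite strands. Both are paternally expressed. Their tallest promoter peak was the same one, 840 bp inside the first intron of Peg3, with heights of 6.40 and 4.44 (82nd and 77th percentile), and the peak over the start sites had 4.42 and 2.95. More tall peaks followed further into the intron, with 5.95 and 4.47 at 1810 bp and 5.19 and 3.78 at 2700 bp from the start site. Zim1, a zinc-finger gene expressed from the maternal copy, had 4.22 and 3.71 (84th and 87th percentile). Inside Usp29 a CTCF site stood at 3.61 and 4.13, which is 29141 bp upstream of a further annotated start site of that gene.

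The intron peaks of Peg3 are known for repeated YY1 sites, and all 9 matches to AANATGGCG found there are printed with 12 bp to each side, with the match in capitals, in order from the Peg3 start site (mm10, + strand; Peg3 lies on the - strand).
Match 1, 842 bp (chr7:6729577-6729609): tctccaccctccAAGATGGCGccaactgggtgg
Match 2, 948 bp (chr7:6729471-6729503): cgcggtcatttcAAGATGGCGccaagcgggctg
Match 3, 1551 bp (chr7:6728868-6728900): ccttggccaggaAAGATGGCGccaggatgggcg
Match 4, 1692 bp (chr7:6728727-6728759): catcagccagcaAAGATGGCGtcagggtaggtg
Match 5, 1980 bp (chr7:6728439-6728471): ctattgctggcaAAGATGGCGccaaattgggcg
Match 6, 2029 bp (chr7:6728390-6728422): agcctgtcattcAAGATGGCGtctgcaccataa
Match 7, 2467 bp (chr7:6727952-6727984): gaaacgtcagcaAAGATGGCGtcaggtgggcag
Match 8, 2586 bp (chr7:6727833-6727865): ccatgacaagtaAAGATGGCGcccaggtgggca
Match 9, 3008 bp (chr7:6727411-6727443): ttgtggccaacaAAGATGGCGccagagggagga
All 9 lie on the same strand between 842 and 3008 bp downstream of the start site. A footprint overlapped 8 of 9 in replicate 1 and 9 of 9 in replicate 2, and 8 in both. Over the genome, 40.9% of 1043 YY1 matches in promoter peaks and 28.5% of 519 in distal peaks were overlapped by a footprint in both replicates. Matches 3 to 6 lay inside a peak of replicate 2 and outside the narrower peak called there in replicate 1. Only 2.26% and 2.41% of promoter peaks hold a YY1 match in the central 200 bp.

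The Snrpn region (chromosome 7) held 1 of the tallest and some of the lowest imprinted promoters. Ube3a, the ubiquitin ligase expressed from the maternal copy in neurons, had 8.37 and 6.13 (80th and 79th percentile), and no distal peak within its body or 10 kb of it. Snrpn, which encodes a small nuclear ribonucleoprotein, had 2.04 and 2.62 (65th and 77th percentile) at its second start site, with a CpG ratio of 0.570, and 0.263 and 0.220 at its first. Mkrn3, a makorin ring-finger gene, had 0.623 and 0.910 (10th and 17th percentile), and Magel2, of the MAGE family, 0.381 and 0.497 (32nd and 37th). Ndn, also of the MAGE family, had no peak at its GENCODE start site, but a peak of 2.41 and 1.73 stood 1712 bp downstream, at the start site that RefSeq gives (1708 bp downstream of the GENCODE site). With that start site, 35 of 44 members were open in both replicates. Other peaks lay in introns of the Snrpn gene, 42920 bp upstream of the second start site (1.44 and 1.53, next to a further RefSeq start site of Snrpn) and 1900 bp downstream of it (0.886 and 0.633), and a CTCF site 5571 bp downstream of the Magel2 start site had 0.610 and 0.633.

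The part of the Snrpn promoter peak that lies upstream of the start site is shown for its ZFP57 hexamers (capitals; + strand of mm10, with Snrpn on the - strand).
Snrpn promoter peak (chr7:60005112-60005240): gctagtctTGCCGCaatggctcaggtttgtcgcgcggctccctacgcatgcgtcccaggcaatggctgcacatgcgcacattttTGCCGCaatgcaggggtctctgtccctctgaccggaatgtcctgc
It holds 2 hexamers in the same orientation, and the promoter peaks of Snrpn together hold 6.

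In the Dlk1-Meg3 region (chromosome 12) the maternally expressed noncoding RNA Meg3 was open in both replicates, Dlk1 and Rian in 1 each, and Rtl1 and Mirg in neither. The Meg3 promoter peak had 1.80 and 1.54 (62nd percentile in both). Dlk1, a Notch-like ligand expressed from the paternal copy, is CpG-rich (ratio 0.832) and had a peak of 0.433 in replicate 2 and none in replicate 1. Rtl1, derived from a retrotransposon, and Mirg, a host of microRNAs, had none, and Rian, a host of small nucleolar RNAs, had 0.348 in replicate 1 and none in replicate 2. The counts here used the basic set of GENCODE transcripts. The full set adds start sites to Mirg with a peak of 2.76 and 2.26, and with them Mirg was open in both replicates. With the full set the mean promoter height was 2.51 at Mirg and 3.52 at Meg3, whose mean was 1.67 with the basic set. The low peaks of Rian came from 1 library: 8 peaks in its body and flanks in replicate 1, with a median height of 0.197, and 0 in replicate 2. A taller peak than that of any of these promoters in the basic set stood in the intron downstream of the Meg3 start site, 2044 bp from it. That peak had 3.48 and 3.57, and the next, at 1174 bp, had 0.807 and 0.484. The full set places the taller one in a promoter window of Meg3. Downstream of Mirg, 12211 bp from a start site, a peak with a CTCF match had 1.82 and 1.33.

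The Meg3 intron peak is shown for its NRF1 site (capitals; + strand of mm10, the strand of Meg3). The motif GCGCATGCG matches on both strands of this palindrome, which therefore counts as 2 overlapping matches.
Meg3 intron peak (chr12:109542941-109543160): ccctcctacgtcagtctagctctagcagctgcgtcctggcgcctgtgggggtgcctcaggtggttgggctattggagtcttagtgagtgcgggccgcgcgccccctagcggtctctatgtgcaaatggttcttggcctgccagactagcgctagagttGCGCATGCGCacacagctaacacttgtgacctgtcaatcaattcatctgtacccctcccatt
A footprint overlapped the site in both replicates, as at 59.5% of 407 NRF1 matches in distal peaks. The same motif stood under a footprint in both replicates in the peaks of Nnat, Zrsr1 and Ndn and in 1 peak near Ddc.

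**Figure D3:**
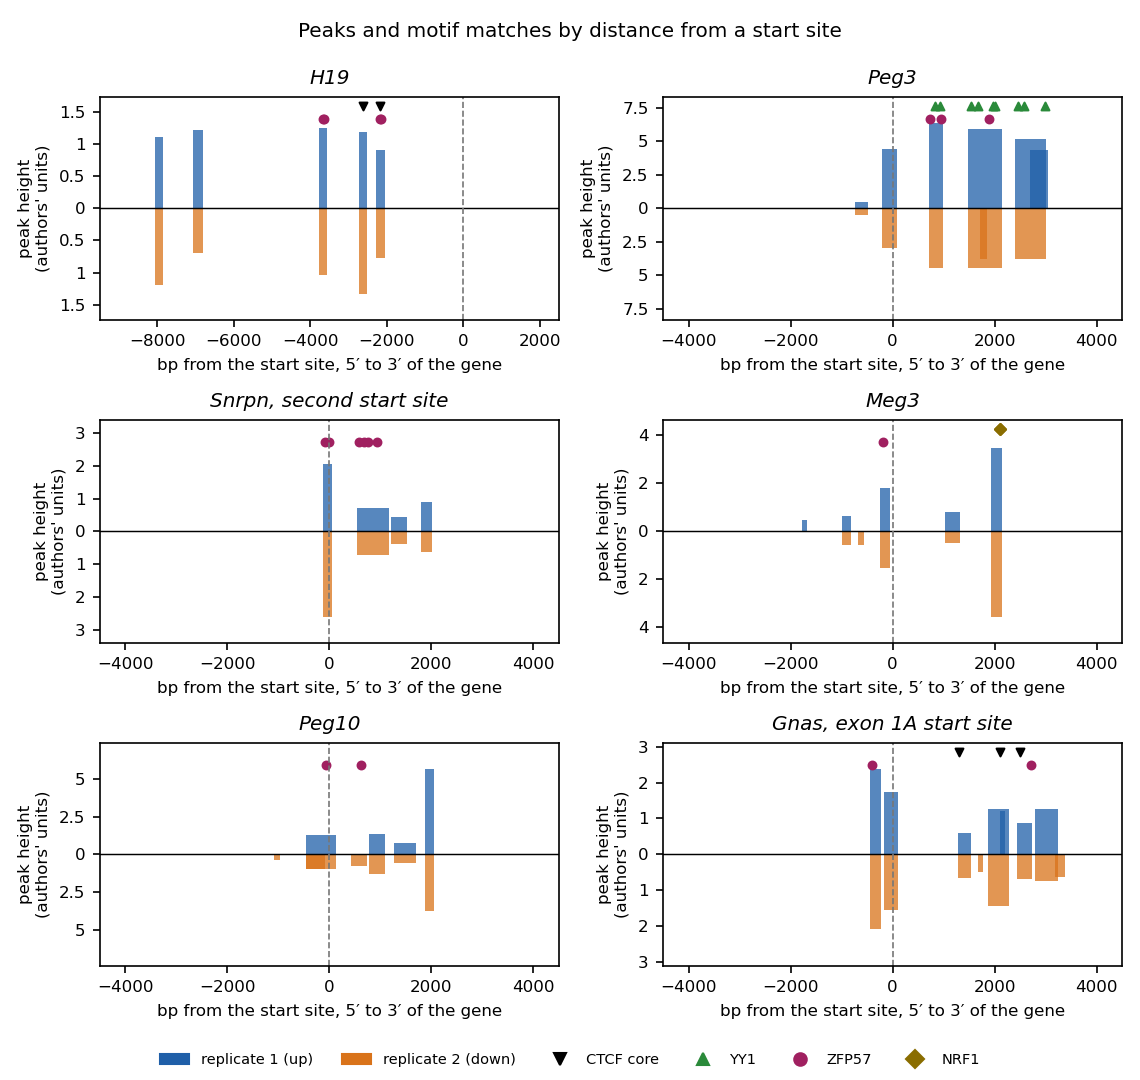
Peaks by distance from a start site (horizontal axis, bp, 5′ to 3′ of the gene) at H19, Peg3, Snrpn, Meg3, Peg10 and Gnas, with height upward for replicate 1 and downward for replicate 2 in the authors' units; bar widths are those of the longer of 2 paired peaks, and symbols mark motif matches. The 5 peaks of H19 all lie upstream of a closed promoter, the YY1 matches of Peg3 lie between 842 and 3008 bp downstream, and the tallest peaks of Meg3 and Peg10 shown lie beyond 1000 bp inside the gene.

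Gnas (chromosome 2) has several promoters with different imprinting. Its tallest promoter peak, 2.39 and 2.07 (25th and 27th percentile), was at exon 1A, a maternally methylated control region. The promoter of the ubiquitous Gs alpha subunit had 1.27 and 1.43, that of Nesp, expressed from the maternal copy, 0.420 and 0.497, and that of XL alpha s, expressed from the paternal copy, 0.361 and 0.394. The exon 1A peak was higher than the other 3 in both replicates. Between XL alpha s and exon 1A, intron peaks had 2.5 and 2.62 and 1.23 and 1.28, and another, 13964 bp downstream of a Gs alpha start site, had 1.63 and 1.54.

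Grb10 (chromosome 11) encodes an adaptor that dampens insulin signalling. Its start site with the highest CpG ratio (1.06) had no peak within 1000 bp, and a peak of 1.04 and 0.891 (9th percentile in both) reached the window of the second start site. That percentile is for the decile of the first site: the second has a ratio of 0.252, in decile 4, where 21.6% of genes were open with a median of 1.03 and 0.881, and ranked by it Grb10 lay at the 89th percentile in both. That peak was centred 1100 bp downstream of the second site, next to 2 further peaks of 1.27 and 1.24 and of 1.52 and 1.67 at 1550 and 2050 bp. With a window of 500 bp Grb10 was without a promoter peak, and with 2000 bp its mean height was 1.59. An intron peak 2919 bp upstream of the third start site had 1.33 and 1.39. Its neighbour Ddc, dopa decarboxylase, had 0.328 in replicate 1 and none in replicate 2, and a CTCF site in its body had 2.51 and 2.95.

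The 15 germline-region promoters were split, with 8 over and 7 under the 50th percentile of their CpG decile in both replicates (8 and 8 with Gnas). Peg3 and Usp29, both over, share their tallest peak, and so do Peg10 and Sgce, both under, so these counts are not independent. Peg10, derived from a retrotransposon, and Sgce, epsilon-sarcoglycan, share a promoter region on chromosome 6 with 1.33 and 1.3 (15th and 18th percentile for Peg10, 29th and 33rd for Sgce). A peak in Peg10, 1865 bp from its start site, was much taller, at 5.68 and 3.73. Mest (chromosome 6), of the hydrolase family, had 1.81 and 1.54 (26th and 27th percentile) at its second start site and none at the first, while Copg2, a coatomer gene that overlaps its end, had 5.51 and 4.47 (66th and 68th). Plagl1 (chromosome 10), a zinc-finger factor, had 1.70 and 1.44 (25th and 26th). Impact, which restrains a kinase that slows translation, stood at the other end with 3.39 and 2.91 (95th percentile in both), with a taller peak of 4.93 and 4.09 in an intron 1418 bp downstream. Zrsr1, Mcts2 and Peg13 were at or above the 55th percentile in both replicates (55th and 62nd, 60th and 55th, 78th and 83rd).

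A number of imprinted promoters lie inside another gene, and 7 such inner promoters were set beside the promoter of the host gene. Igf2r and Airn (chromosome 17) are the classic case: the paternally expressed noncoding RNA Airn starts in an intron of Igf2r, the receptor that clears insulin-like growth factor 2. Igf2r had 2.89 and 2.20 (30th and 29th percentile) and Airn 0.952 and 0.588 (48th and 40th), or 0.33 and 0.27 times the host. Slc22a3, an organic cation transporter silenced by Airn in the placenta, had no peak, and in replicate 2 only 4 bp in its window were listed in the deposited false discovery rates (lowest 0.0461). The other hosts with a lower inner promoter are in 4 more regions. The splicing-related retrogene Zrsr1 (chromosome 11) had 3.30 and 3.20 and its host Commd1 6.14 and 6.0. That Zrsr1 peak is centred 936 bp inside, next to a RefSeq start site of Commd1, and within 500 bp of the Zrsr1 start site the heights were 1.64 and 1.84. Nnat (chromosome 2), neuronatin, had 1.38 and 1.67 (15th and 23rd percentile) and its host Blcap 3.57 and 3.14. The noncoding RNA Peg13 (chromosome 15) had 3.23 and 3.25 and its host Trappc9, of a vesicle transport complex, 6.57 and 4.65 (94th and 92nd percentile). Peg13 was thus above the middle of its own CpG decile although lower than its host. Its CpG ratio lies at the upper edge of decile 6. With ratios taken at the start site nearest the tallest peak, Peg13 fell in decile 7, at the 55th and 64th percentile. The downstream start site of Inpp5f (chromosome 7), a phosphoinositide phosphatase, had 3.48 and 2.20 and its main promoter 9.98 and 5.55. Airn, Zrsr1, Nnat, Peg13 and the Inpp5f downstream site, 5 of the 7 inner promoters, were lower than the host in both replicates. The other 2 were higher in both: Nap1l5 with 2.44 and 1.96 in Herc3 with 2.28 and 1.54 (chromosome 6), and the retrogene Mcts2 with 5.67 and 4.02 in H13, signal peptide peptidase, with 4.44 and 3.36 (chromosome 2). With all GENCODE transcripts the mean height of Herc3 was 2.20, the same as that of Nap1l5. There the Nap1l5 peak also counts as a promoter peak of its host.

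**Figure D4:**
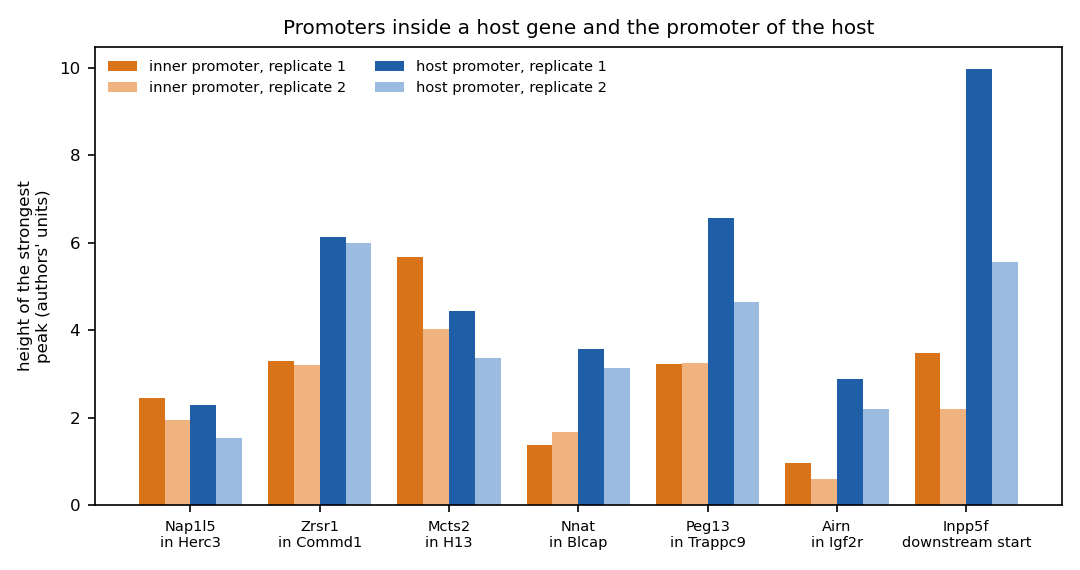
Height of the tallest peak (authors' units, axis from 0) at 7 promoters inside a host gene and at the promoter of that host, one bar per replicate. The inner promoter is the lower one in both replicates in 5 pairs and the higher one for Nap1l5 and Mcts2.

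The ZFP57 hexamer TGCCGC was more frequent in promoter peaks at germline regions than in promoter peaks at large. In windows of 200 bp at the peak midpoint it occurred in 12 of 27 peaks of replicate 1 (44.4%) and 13 of 30 of replicate 2 (43.3%), against 14.3% and 14.6% of all promoter peaks. The CpG ratio of these windows was similar, with medians of 0.726 and 0.704 against 0.682 and 0.703. Over all promoter peaks in the members' regions the share was 29.3% in both replicates (22 of 75 peaks each). By gene, 13 of the 15 germline-region members held at least 1 hexamer in their promoter peaks, with 8 at Mest and 6 at Snrpn, and Impact and Zrsr1 held none there. Peg3 and Usp29 were counted through the same peak, and Peg10 and Sgce through the same peaks, so these counts are not independent. The taller intron peak of Impact, 1418 bp downstream and outside its promoter window in the basic set, did hold the hexamer. It stood there both at a site under a footprint in both replicates and at a site with none. Of all 18249 genes with a promoter peak in either replicate 33.5% held a hexamer, and of those with the same CpG decile and number of peaks as the 15 members 39.7%. Of the other 29 members 7 had no promoter peak to search and 10 of the remaining 22 held a hexamer (45.5%, against 34.3% of genes matched in the same way). In distal peaks of the members the hexamer occurred in 5.09% and 5.61%, near the 4.59% and 4.83% of all distal peaks. Of 78 hexamers in all peaks of the members, a footprint overlapped 17 in both replicates (21.8%), near the 17.4% of hexamers in promoter peaks and 15.5% in distal peaks of the genome. The hexamer is read by ZFP57 when methylated, and methylation was not measured here.

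**Figure D5:**
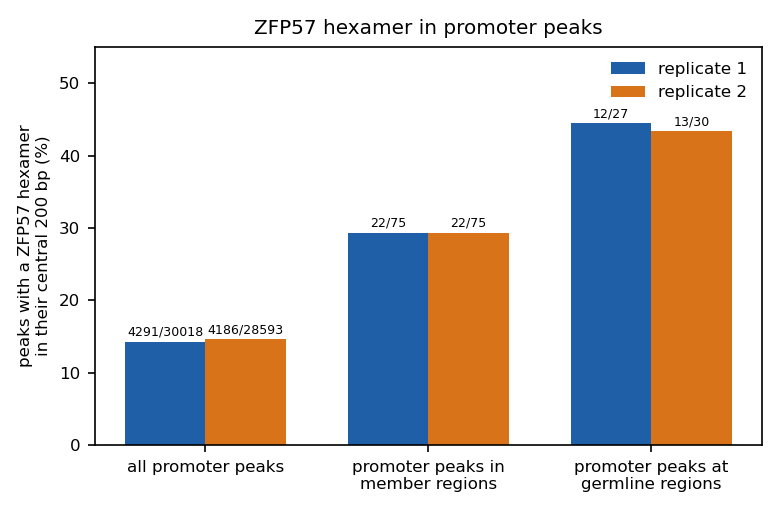
Share of promoter peaks with a ZFP57 hexamer in their central 200 bp (vertical axis, percent, from 0) for all promoter peaks, those in the members' regions and those at germline-region promoters, one bar per replicate, with counts above the bars. The share is 44.4% and 43.3% at germline regions and 14.3% and 14.6% over all promoter peaks.

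Distal peaks were those in the gene body or within 10 kb of it and outside the gene's own promoter windows, counted per 10 kb and ranked among genes of like length. Of the 44 imprinted genes, 29 ranked over the 50th percentile in both replicates (65.9%), against 43.2% of all genes, but 3 over the 90th (6.82%, against 6.62%). Ube3a was the only one without a distal peak in either replicate (2.27%, against 20.3%). Neighbouring members can share distal peaks, so these counts are not independent. A further pattern of CTCF motif (the consensus, written with degenerate letters) matched 16 sites in peaks of the members, of which 12 were overlapped by a footprint in both replicates, while over the genome 85.4% of matches in promoter peaks and 80.9% in distal peaks were. Among these were the tallest such distal site, 9916 bp downstream of the Mcts2 start site (3.94 and 4.20), inside a promoter window of a gene outside the list, and one 7867 bp upstream of Trappc9 (2.52 and 2.94). In the Igf2r region a CTCF site beyond the end of Slc22a3 had 1.5 and 2.42, and 2 intron peaks of Igf2r had 0.919 and 0.820 and 0.860 and 0.755. In the body of Trappc9, peaks with a match to the core of the H19 region had 0.413 and 0.510, and 0.354 in replicate 1 alone, with no footprint over the match, and at the end of Plagl1 a consensus site had 0.342 in replicate 2 alone.

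Rasgrf1 (chromosome 9), an exchange factor for RAS in neurons, had the densest set of distal peaks of all members. Its promoter peak had 2.07 and 1.71 (24th percentile in both). In its body and flanks there were 69 distal peaks in replicate 1 and 39 in replicate 2, which was the 99.98th percentile for its length in replicate 1. They were low, with a median height over all its peaks of 0.151 and 0.187, far under the 0.643 and 0.639 of all peaks. Of 84 peak positions, 29 were called in both replicates, 43 in replicate 1 alone and 12 in replicate 2 alone, so most of them were not shared. The 3 tallest of its distal peaks with a CTCF match had 0.833 in replicate 1 alone, 0.164 and 0.20, and 0.142 in replicate 2 alone. Other members with many peaks had taller ones: Trappc9 had 52 positions with 21 in both replicates, at medians of 0.486 and 0.504, and Usp29 had 29 with 21 in both, at 0.719 and 0.678.

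At 4 imprinted genes a peak 1000 to 3000 bp downstream of a start site was taller than the tallest promoter peak in both replicates. These were Peg10 (5.68 and 3.73 against 1.33 and 1.3), Impact (4.93 and 4.09 against 3.39 and 2.91), Meg3 (3.48 and 3.57 against 1.80 and 1.54) and Grb10 (1.52 and 1.67 against 1.04 and 0.891). That is 4 of the 34 members open in both replicates (11.8%), against 3% of 16945 genes. A downstream peak of any height in both replicates stood at 11 of the 34 (32.4%), against 16.3% of all genes open in both. The distances were chosen after the peaks of these genes had been seen. All of these counts used the basic set of GENCODE transcripts. With the full set the mean promoter height was 3.52 at Meg3, 4.51 at Impact and 1.59 at Grb10, as with a window of 2000 bp. There the downstream peaks of Meg3, Impact and Grb10 count as promoter peaks, and that of Peg10 does not. The counts were not repeated with the full set.

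Between the replicates, 33 of the 34 members open in both, all but Rasgrf1, had the same tallest peak in each. Their heights were compared after scaling to the median of 101759 shared peak pairs of the genome (-0.19 on the log2 scale, replicate 2 over replicate 1). After scaling, 14 were higher in replicate 2 and 19 in replicate 1, with a median log2 difference of -0.04 and a range from -0.66 to 0.74. Over all genes 11158 of 16019 (69.7%) were higher in replicate 1, against 57.6% of the members, with a median of -0.13. Only Inpp5f (-0.66) and Mkrn3 (0.74) were more than 1.5-fold apart, and 3.5% of genes in the genome were. Without scaling, 7 of the 33 were higher in replicate 2. A footprint stood in the tallest promoter peak of 31 of 34 members in both replicates, against 96% of all genes open in both.

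The proteins that maintain imprints are mostly expressed in many tissues, and 18 of 22 such genes were open at the promoter in both replicates (81.8%, against 85.5% of genes of the same CpG content). The 5 tallest on average were Arid4a (11.4 and 8.50) and Arid4b (8.17 and 5.68), which bind retinoblastoma protein and act on the Snrpn region, Yy1 (9.19 and 5.08), Dnmt1, the maintenance methyltransferase (7.06 and 6.25), and Trim28, the partner of ZFP57 (4.96 and 5.44). Zfp57 itself had 0.525 and 0.523. The 4 without a peak were Dppa3, Ctcfl, Tet1 and Zfp42, of which Dppa3, Ctcfl and Zfp42 are known for germ cells and early embryos. Of 44 listed neighbours of the imprinted genes 1, Mageb16, is on chromosome X, where no member lies, and was left out. Of the other 43, 32 were open in both replicates (74.4%, against 77.5% of genes of the same CpG content), 2 in 1 and 9 in neither. The 5 tallest of the list were Nap1l4 (13.6 and 12), Xpo1 (13.6 and 11.8), Herc2 (11.4 and 8.98), Tssc4 (11 and 8.65) and Hnrnpa1 (9.75 and 8.13). The list was fixed by name with no limit on distance. How far Hnrnpa1 lies from the members on its chromosome, 15, was not measured, so it may not be a neighbour. Among the 9 without a peak were Kcnq1, Th, Ins2, Dio3 and Calcr. The median percentile of the neighbours within their CpG deciles was 43 in both replicates, that of the members 37 and 38, and that of all genes 43.6 and 44.4. The medians of the members and of all genes are percentiles shared by genes without a peak, as is that of the neighbours in replicate 2. They therefore do not measure a typical height. Imprinting of the listed neighbours was not checked and the list may hold imprinted genes, so it is no reference of genes without imprinting.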

How the data were processed

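DNase-seq signal was analysed from the files the authors deposited for 2 replicates of mouse hippocampus. Peak heights (unit: signal) were deposited per sample on mm10, per the file headers and labels, and no source used here names the aligner, the callers or the height scale. All heights under 200 steps were whole multiples of a step of 0.00656 and 0.00646 (within 0.1 step), and the total number of cuts is not given, so counting error was not computed. The longer of 2 deposited peak lists was used (144270 and 124426 peaks), with the shorter (87039 and 74088) as an alternative. The deposited false discovery rates (q-values) list only intervals at 0.05 or less, and the deposited footprints (348892 and 327771) carry the constant 0.01, read as a p-value threshold. Whether reads of both alleles mapped equally well was not tested.

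Gene models were GENCODE M21 (basic set), sequence was GRCm38, and RefSeq start sites on the same build matched 36 of the 44 members. Ties at no peak share a percentile. Replicate peaks were paired as mutual best overlaps. Motif searches used exact strings on both strands. The members, gene lists, motifs and named genes were chosen with earlier results of these data known. The text names every member, the 5 tallest promoters of the machinery and neighbour lists, genes of these lists with no peak, and up to 3 distal peaks of each region that hold a CTCF match or lie within 10000 bp of H19, Meg3, Snrpn, Gnas, Grb10, Igf2r or Peg3. With 1 group no test between conditions could be run. Scripts were tested on simulated data and used Python 3.11.15 with numpy 2.4.6, pandas 2.3.3, pysam 0.24.0, samtools 1.23.1 and matplotlib 3.10.9. Alternatives varied the peak list, windows, start sites, CpG match, flanks, scaling and replicates.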

Additional observations from a re-analysis of the deposited data

How the results depend on the processing

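Of 57 alternative values of the main counts, 55 stayed within 1.5 times the value given. Without the match by CpG ratio, 10 members in place of 25 ranked under the 50th percentile in both replicates (3 in place of 18 of the CpG-rich ones), and without scaling, 7 in place of 14 were higher in replicate 2 (20 with scaling to the summed height). Without the Peg3 region, 6 in place of 10 peaks of the members held a YY1 match. With the CpG ratio taken at the start site nearest the tallest peak, added after the data were seen, 25 members were again under the 50th percentile in both replicates. So were 18 of those counted as CpG-rich before, but H13 (49th and 47th percentile) entered and Grb10 (89th in both) left. By the new ratio 29 members were CpG-rich, and 19 of them were under it (65.5%, against 47.3% of all CpG-rich genes). Airn and Peg13, at the edge of their decile, lay at the 24th and 20th and at the 55th and 64th percentile. The number of members with a promoter peak ranged from 32 (shorter peak list, or gene 5′ end alone) to 36, and was 35 with RefSeq start sites or with all GENCODE transcripts, which were added after the data were seen. With 1 replicate left out in turn, 35 and 36 members had a promoter peak. Of 396 alternative heights of members, 30 moved by more than the spread between replicates. The 396 include the settings with 1 replicate left out. Those could move no height by this rule, because they change the mean by less than that spread. Heights that moved include those of Grb10, Mest and Snrpn, whose peaks lie at a second start site. They also include those of Ndn, and of Peg10, Meg3 and Impact, which have a taller peak within 2000 bp. With all GENCODE transcripts, the heights of Grb10, Meg3, Impact and Mirg moved. No paired analysis was possible because there was only 1 group. With 2 pools and no alleles resolved, the spread is known from 2 values alone, and the peaks of Dlk1, Rian and Ddc rest on 1 replicate each.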
